A study of Homo sapiens with 8 samples.

Results

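Aminoacyl-tRNA synthetases are the enzymes that load each amino acid onto its transfer RNA. A set of 35 human genes for these enzymes was taken by gene symbol from RNA-seq count tables of HCT116 cells, a human colon cancer line. Of the 35 symbols, 34 were found among 55075 genes in the tables: 20 for cytosolic enzymes and 14 for mitochondrial enzymes, whose symbols end in 2. All 34 passed the filter on low counts that left 17471 genes for testing. SARS2, the mitochondrial seryl enzyme, was not found under its symbol, and its annotated gene ID is described apart from the others.

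The groups were FBXW7 knockout (KO) cells at recovery, KO cells at heat shock, wild-type (WT) cells at recovery and WT cells at heat shock, with 2 libraries in each. All cells were exposed to 42 °C for 1 h, and the recovery cells were then kept at 37 °C for 2 h, so every group had been heated and unheated cells were not analysed here. FBXW7 is the part of an SCF-type ubiquitin ligase that binds its substrates, MYC among them. The submitters call the replicates biological. The sources used here do not say whether the KO line was 1 clone, whether replicates were separate cultures, or which libraries came from poly-A selected RNA and which from RNA depleted of ribosomal RNA. The p-values rest on the spread between replicate libraries, estimated jointly from all 8 libraries with 2 per group. That spread may therefore be technical.

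Each synthetase recognises 1 amino acid and its transfer RNAs, and most exist as separate cytosolic and mitochondrial enzymes made from separate nuclear genes. GARS and KARS are exceptions that encode both forms, EPRS joins the glutamyl and prolyl enzymes in 1 protein, and the cytosolic phenylalanyl enzyme is built from FARSA and FARSB subunits. In human cells several cytosolic synthetases sit together in a multisynthetase complex on the scaffold proteins AIMP1, AIMP2 and EEF1E1. Many cytosolic synthetase genes are known targets of ATF4, the transcription factor of the amino acid response, which binds C/EBP-ATF composite elements, and MYC binds the E-box CACGTG.

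Promoters of 28 of the 34 genes were matched by symbol in a RefSeq table (build GRCh38.p14) that holds 250 bases before and 50 bases after each start site. Entries were not matched for DARS, LARS, VARS, YARS, AARS2 and VARS2. The core TGATGNAA of the composite element, searched on both strands, was present in 6 of 16 cytosolic promoters (37.5%) and in 1 of 12 mitochondrial promoters (8.33%), against 3.62% of 35116 promoters of all genes and 2.69% of 22199 protein-coding ones. The elements are shown because all 6 cytosolic matches carried the same 8 letters, TTGCATCA or its reverse complement, whereas the mitochondrial match in YARS2 differed in 1 letter. Capitals mark the element, and each stretch is read 5′ to 3′ on the strand of its gene.
AARS: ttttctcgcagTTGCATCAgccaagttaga
CARS: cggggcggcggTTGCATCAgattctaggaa
IARS: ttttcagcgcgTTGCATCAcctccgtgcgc
MARS: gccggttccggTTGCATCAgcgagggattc
NARS: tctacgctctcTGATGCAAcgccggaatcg
TARS: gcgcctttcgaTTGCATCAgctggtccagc
YARS2: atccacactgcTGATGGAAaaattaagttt
These stretches lie at chr16:70289675-70289704 (minus strand, AARS), chr11:3057407-3057436 (minus, CARS), chr9:92293692-92293721 (minus, IARS), chr12:57488053-57488082 (plus, MARS), chr18:57621804-57621833 (minus, NARS), chr5:33440956-33440985 (plus, TARS) and chr12:32756076-32756105 (minus, YARS2). In CARS, IARS, MARS, NARS and TARS the element began within 14 bases of the RefSeq start site, and in AARS and YARS2 it began 187 and 197 bases before it.

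The E-box CACGTG was present in 3 of 12 mitochondrial promoters (25%) and in 1 of 16 cytosolic promoters (6.25%), against 7.26% of all promoters and 8.34% of protein-coding ones. The mitochondrial matches are shown because they include MARS2, the gene with the largest recovery change in WT cells, and EARS2, with the fourth largest. FARSA, QARS, HARS, LARS2, YARS2 and FARS2 were also called lower in WT recovery and had no E-box match. Promoters of AARS2, VARS and VARS2, called lower too, were not matched by symbol. Capitals mark the E-box, which began 11, 15 and 3 bases before the start site.
MARS2: tgcgcctctcaCACGTGctgtcagaacg
EARS2: agggagaagccCACGTGtgctattccat
CARS2: gctgggatgcaCACGTGcttcgctaaca
They lie at chr2:197705347-197705374 (plus strand, MARS2), chr16:23557349-23557376 (minus, EARS2) and chr13:110706502-110706529 (minus, CARS2), and the single cytosolic match was IARS. Among inverted heat shock units, GAANNTTC was present in 2 of 16 cytosolic promoters (GARS and NARS) and in 1 of 12 mitochondrial ones (HARS2), against 6.77% of all promoters. TTCNNGAA was in none of the 28, against 7.74% of all. A match is a run of letters in the reference, and binding was not measured in these data.

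Total counts ran from 15507896 to 34387618 per library, and the 34 genes took 0.511 to 0.609% of them. Levels are in CPM, the deposited counts scaled to a common TMM-adjusted library size. FBXW7 itself stood at 14 and 13.8 CPM in KO recovery, 17.4 and 14.9 CPM in KO heat shock, 22.9 and 21.7 CPM in WT recovery and 33.5 and 31.4 CPM in WT heat shock, so its transcript was lower in all 4 KO libraries but was still counted. All 9 epithelial and colon cancer line markers were found at 1 CPM or more, against 1 of 6 fibroblast markers and none of 5 leukocyte, 2 endothelial or 2 erythroid markers. The GC content of transcripts, weighted by counts, was 49.45 and 49.28% in KO recovery, 48.07 and 48.24% in KO heat shock, 48.51 and 48.38% in WT recovery and 50.05 and 49.29% in WT heat shock. It thus moved in opposite directions during recovery in the lines, and values refitted with offsets for GC content and transcript length are given beside each comparison.

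Cytosolic enzymes were the more abundant class. Per kilobase of transcript and averaged over the 8 libraries, they ran from 38.9 CPM (FARSB) to 144 CPM (KARS), with a median of 74.3 CPM per kilobase. Mitochondrial enzymes ran from 2.55 (WARS2) to 51.2 (IARS2), with a median of 10.8 CPM per kilobase. The classes overlapped only through IARS2, the mitochondrial isoleucyl enzyme, which stood above FARSB, HARS, LARS and CARS and level with WARS at 51.1 CPM per kilobase, a neighbour it could not be told from. At the top, KARS and GARS, the pair that serve both compartments, were followed by IARS and SARS at 109 each and TARS at 107. This order shifted with the line: SARS was at 94.1 and 85 CPM per kilobase in KO recovery and 64.4 and 63.5 in KO heat shock, against 140 and 144 in WT recovery and 149 and 132 in WT heat shock.

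**Figure D1:**
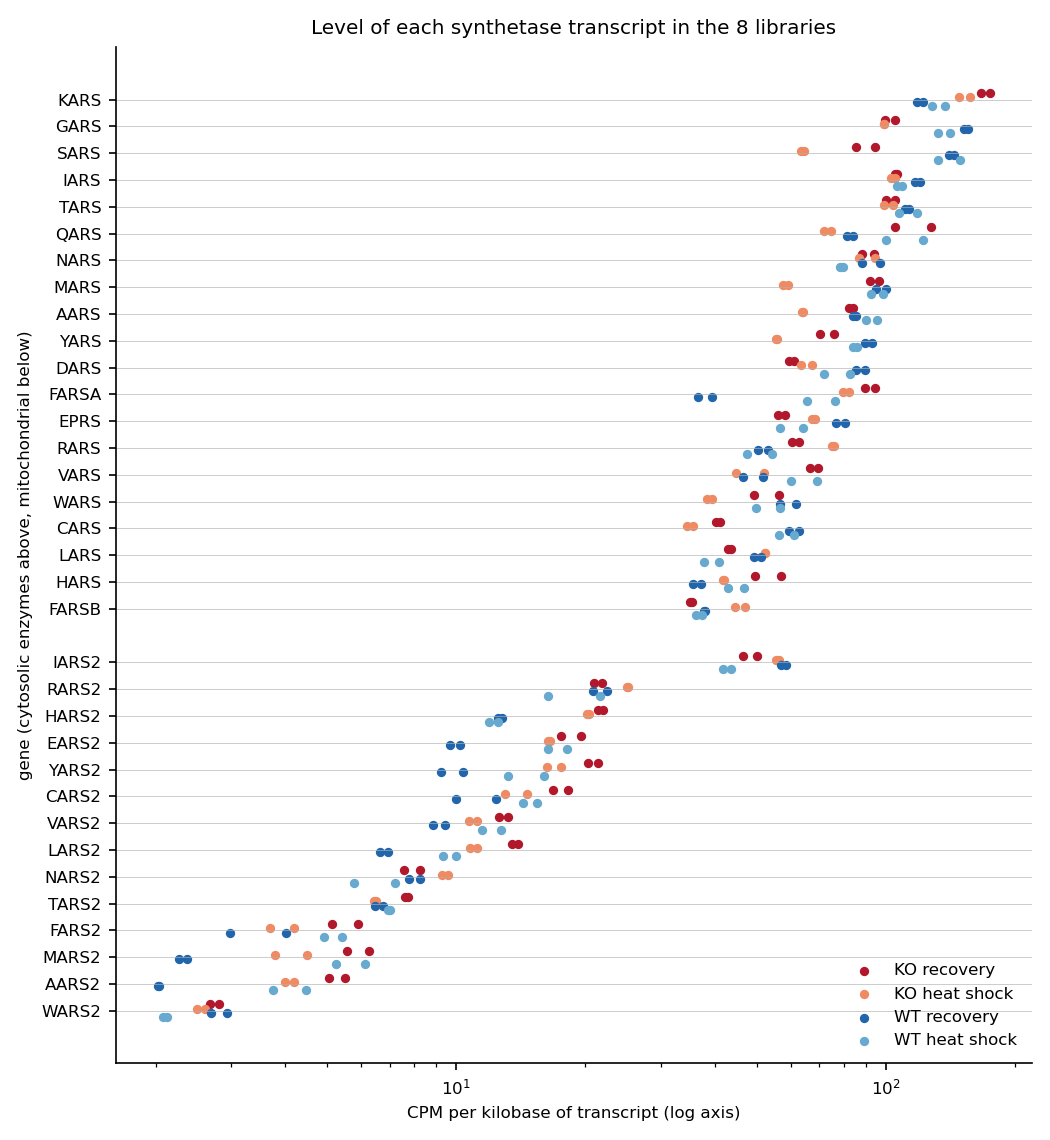
Level of each of the 34 transcripts, in CPM per kilobase on a log axis, with 1 point per library coloured by group. Cytosolic enzymes (upper block) lie between 38.9 and 144 on average and mitochondrial enzymes (lower block) between 2.55 and 51.2, and the WT recovery points of MARS2, AARS2 and FARSA stand to the left of the other groups.

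In WT cells, most mitochondrial synthetase transcripts were lower at recovery than at heat shock, and few cytosolic ones were. Of 14 mitochondrial genes, 8 fell and 3 rose, with a median log2 change of -0.41. Of 20 cytosolic genes, 4 fell and 2 rose, with a median of 0.04. Over all genes tested, 26% were called lower and 24.8% higher at an adjusted p under 0.05, with a median of 0.01 (quasi-likelihood F test in edgeR, Benjamini-Hochberg adjusted). The share of mitochondrial genes called lower was above the background, and both cytosolic shares were below it. With upper-quartile scaling 7 cytosolic genes were called higher, against 30.4% of all genes. In bulk RNA, a smaller amount of a transcript per cell and a larger amount of other RNA cannot be told apart.

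MARS2 (ENSG00000247626), the mitochondrial methionyl enzyme, had 6.86 and 7.11 CPM in WT recovery libraries, against 18.5 and 15.9 CPM in WT heat shock libraries. Its log2 change of -1.30 ± 0.15 (SE, adjusted p = 1e-06) was the largest of the 34. AARS2, the mitochondrial alanyl enzyme, had 7.77 and 7.88 CPM in WT recovery, against 17.2 and 14.5 CPM in WT heat shock, a change of -1.01 ± 0.13. Both fell in each replicate pair and had their lowest levels of all groups in WT recovery. EARS2, the mitochondrial glutamyl enzyme, had 40.6 and 38.3 CPM in WT recovery and 71.6 and 64.9 CPM in WT heat shock (-0.79 ± 0.10). YARS2, the tyrosyl enzyme, had 22.1 and 19.6 CPM in WT recovery and 28.1 and 34 CPM in WT heat shock (-0.57 ± 0.12). FARS2, the phenylalanyl enzyme and one of the least abundant, had 6.8 and 5.04 CPM in WT recovery and 9.21 and 8.36 CPM in WT heat shock (-0.57 ± 0.17). In all 17 members called in this comparison the recovery libraries stood apart from the heat shock libraries. They also did in members that did not pass, AARS and KARS among them, so the separation was not particular to the called members. The share of all genes that separate in this way was not counted. LARS2, CARS2 and VARS2, the leucyl, cysteinyl and valyl enzymes, fell by 0.51, 0.41 and 0.41 on the log2 scale. The call for CARS2 was lost without replicate 1 of either WT group, and that for FARS2 without replicate 2 of either.

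IARS2, WARS2 and NARS2, the isoleucyl, tryptophanyl and asparaginyl enzymes, went against the other mitochondrial genes. IARS2, the most abundant of them, had 209 and 203 CPM in WT recovery, against 148 and 155 CPM in WT heat shock, a log2 change of 0.44 ± 0.09 (adjusted p = 7.7e-04). WARS2 had 8.2 and 7.53 CPM in WT recovery and 5.83 and 5.95 CPM in WT heat shock (0.42 ± 0.16, adjusted p = 0.0381). NARS2 had 20.8 and 19.6 CPM in WT recovery and 14.6 and 18.1 CPM in WT heat shock (0.31 ± 0.12, adjusted p = 0.0463). The calls for WARS2 and NARS2 were close to the threshold and were lost when any of the 4 KO libraries or replicate 1 of either WT group was left out, which leaves 1 mitochondrial gene higher, and WARS2 was also lost without replicate 2 of either WT group. HARS2, RARS2 and TARS2 did not pass, at 0.06, 0.20 and -0.08.

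Among the cytosolic genes, FARSA, the catalytic alpha subunit of the phenylalanyl enzyme, had 71.2 and 66.1 CPM in WT recovery, against 138 and 119 CPM in WT heat shock, a log2 change of -0.90 ± 0.10 (adjusted p = 5.1e-07). FARSB, the beta subunit of the same enzyme, had 127 and 128 CPM in WT recovery and 122 and 126 CPM in WT heat shock, a change of 0.04 ± 0.09 that did not pass (adjusted p = 0.724). Only 1 of the subunit transcripts was therefore called at recovery in WT cells, though with the GC and length offsets FARSB was called lower at -0.24. QARS, VARS and HARS, the glutaminyl, valyl and histidyl enzymes, fell by 0.42, 0.39 and 0.30. EPRS had 384 and 403 CPM in WT recovery and 285 and 322 CPM in WT heat shock (0.38 ± 0.10). LARS, the leucyl enzyme, also rose (0.36 ± 0.09). The other 14 cytosolic genes did not pass and lay between -0.15 and 0.23.

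Direction followed GC content among these genes. Of 12 members with a GC content under 46%, 5 rose and none fell, with a median log2 change of 0.22, whereas of 10 members at 54% or more, 8 fell and none rose, with a median of -0.41. Protein-coding genes at large had medians of 0.23 under 46% and -0.30 at 54% or more. Across the 34 members r with GC content was -0.62, and across 13267 coding genes it was -0.33, in the same libraries. The cytosolic and mitochondrial classes had nearly the same median GC content, 50.2 and 50.3%, and median transcript lengths of 2998 and 2764 bases. With the GC and length offsets, 7 mitochondrial genes fell and 1 rose, all 8 among those called without offsets, while 6 cytosolic genes fell and 4 rose, of which 2 and 0 were among those called without. In that fit 32% of all genes were called lower and 20% higher. MARS2 changed by -1.35, AARS2 by -0.73, FARSA by -0.70 and IARS2 by 0.21 with the offsets, and VARS, HARS, VARS2, EPRS, LARS, WARS2 and NARS2 no longer passed.

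**Figure D2:**
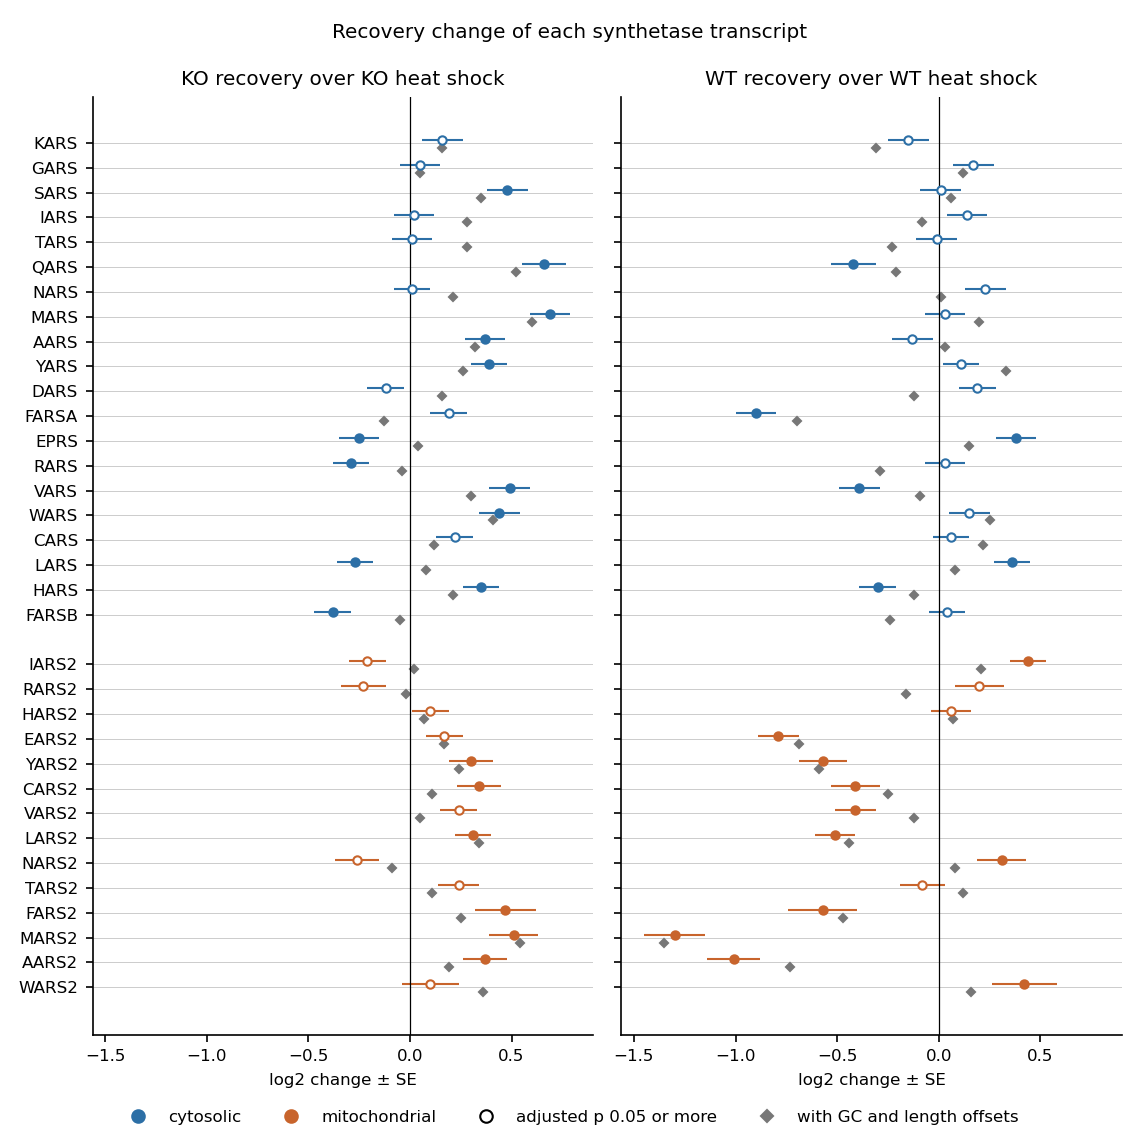
Log2 change from heat shock to recovery with its SE for each transcript, KO on the left and WT on the right. Filled points passed at an adjusted p under 0.05, open points did not, and grey diamonds give the value with GC and length offsets; the lowest WT points are MARS2 at -1.30 and AARS2 at -1.01, and the highest KO points are MARS at 0.69 and QARS at 0.66.

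In KO cells, synthetase transcripts of both classes were more often higher than lower at recovery. Of 20 cytosolic genes, 8 rose and 4 fell, with a median log2 change of 0.17, and of 14 mitochondrial genes, 6 rose and none fell, with a median of 0.24. Over all genes tested, 20.6% were called higher and 21.1% lower, with a median of -0.02. Both classes thus held a larger share of higher calls than all genes did. These counts shrank when a KO library was left out. Without replicate 1 of either KO group, most of the higher calls in both classes were lost. Without replicate 2 of either, most of the mitochondrial ones were. Without any 1 of these 4 libraries, the cytosolic lower calls were lost. Each of those fits had 1 KO pair left, and calls over all genes tested were fewer in each direction too. From the KO libraries alone, 3 of the 14 mitochondrial genes were called lower, against 4050 of 16319 genes tested in that fit. Mitochondrial lower calls also came up without any 1 of the WT libraries. DESeq2, run on all 8 libraries, called 1 mitochondrial gene higher, against 2385 of 17471 genes.

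MARS (ENSG00000166986), the cytosolic methionyl enzyme, had 281 and 267 CPM in KO recovery, against 172 and 167 CPM in KO heat shock, a log2 change of 0.69 ± 0.10 (adjusted p = 1.6e-05). QARS, the glutaminyl enzyme, had 360 and 296 CPM in KO recovery and 203 and 210 CPM in KO heat shock (0.66 ± 0.11, adjusted p = 7.1e-05). MARS and QARS were the only members called in every leave-one-out fit of this comparison and under every other setting run. MARS2 had 19 and 16.8 CPM in KO recovery and 11.4 and 13.5 CPM in KO heat shock (0.51 ± 0.12). VARS had 300 and 287 CPM in KO recovery and 193 and 224 CPM in KO heat shock (0.49 ± 0.10). SARS, the seryl enzyme, had 174 and 157 CPM in KO recovery and 119 and 118 CPM in KO heat shock (0.48 ± 0.10). In all 18 members called in this comparison the recovery libraries stood apart from the heat shock libraries. They also did in members that did not pass, GARS and KARS among them, so here too it was not particular to the called members. Its share over all genes was not counted. FARS2 had 9.99 and 8.67 CPM in KO recovery and 6.25 and 7.1 CPM in KO heat shock (0.47 ± 0.15). WARS, YARS, AARS and HARS rose by 0.44, 0.39, 0.37 and 0.35, and AARS2, CARS2, LARS2 and YARS2 by 0.37, 0.34, 0.31 and 0.30.

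The 4 genes that fell in KO cells were all cytosolic and all low in GC content. FARSB had 119 and 118 CPM in KO recovery, against 150 and 158 CPM in KO heat shock, a log2 change of -0.38 ± 0.09. RARS, LARS and EPRS, the arginyl, leucyl and glutamyl-prolyl enzymes, fell by 0.29, 0.27 and 0.25. FARSA, the partner subunit of FARSB, had 171 and 162 CPM in KO recovery and 144 and 149 CPM in KO heat shock, and its change of 0.19 ± 0.09 did not pass (adjusted p = 0.116). With the GC and length offsets none of the 4 passed, and EPRS and LARS changed sign, to 0.04 and 0.08.

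The relation with GC content ran the other way in KO cells, with r = 0.77 across the 34 members and 0.44 across 13267 coding genes. Of 12 members under 46% GC, none rose and 4 fell, with a median log2 change of -0.22. Of 10 members at 54% or more, 7 rose and none fell, with a median of 0.36. Protein-coding genes at large moved the same way, with medians of -0.32 under 46% and 0.24 at 54% or more. With the offsets, 11 cytosolic genes rose, including all 8 called without them, and none fell, against 18.8% of all genes called higher and 15.3% lower in that fit. IARS, NARS and TARS, which did not pass at 0.02, 0.01 and 0.01, were called higher with offsets, at 0.28, 0.21 and 0.28. Of the mitochondrial genes 4 were higher with the offsets, among them MARS2, LARS2 and YARS2, and AARS2, CARS2 and FARS2 no longer passed.

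**Figure D3:**
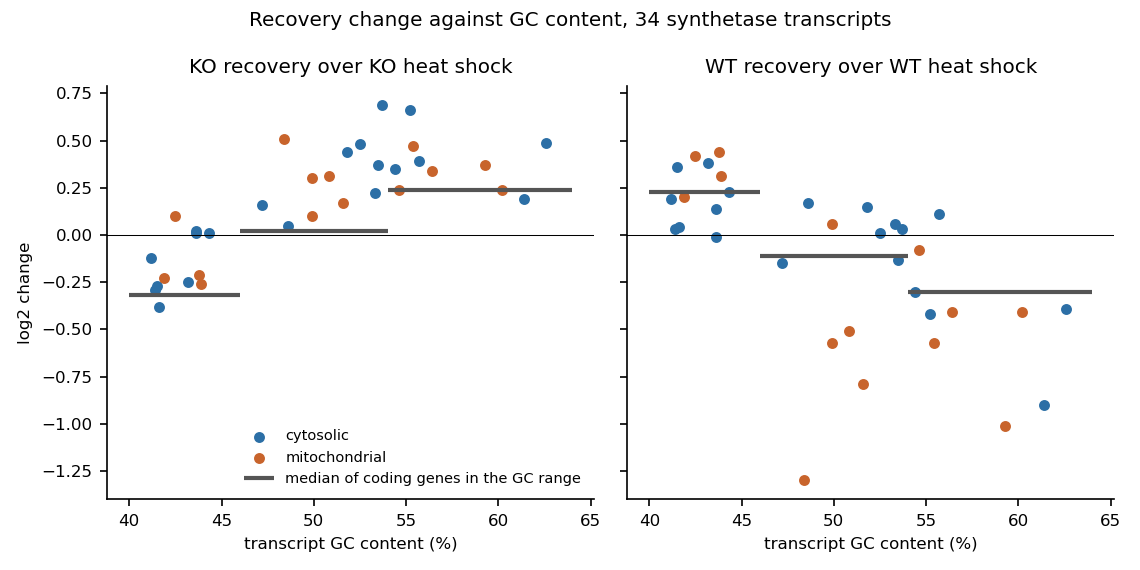
Log2 recovery change against transcript GC content for the 34 members, KO on the left and WT on the right, with the median of all coding genes in each of 3 GC ranges as grey bars. In KO the bars rise, with medians of -0.32 under 46% GC and 0.24 at 54% or more; in WT they fall, with 0.23 and -0.30.

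The lines were then compared in their recovery changes, which share no library. Of the 34 members, 9 were called higher in KO and lower in WT, and 2 were called lower in KO and higher in WT. None was called in the same direction in both, and 10 were called in neither. Over all genes tested, 11.5% were called higher in KO and lower in WT, 10.5% lower in KO and higher in WT, 3.74% in the same direction and 33.1% in neither. The difference itself was tested as the interaction in the paired model. By that test 8 of 14 mitochondrial genes changed more upward in KO than in WT and 3 changed more downward, with a median difference of 0.71, and 7 of 20 cytosolic genes changed more upward and 3 more downward, with a median of 0.22. Over all genes tested, 28.5% were called upward and 27.8% downward, with a median of -0.03. In either direction 21 of the 34 members were called, near the 56.3% of all genes.

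MARS2 had the largest difference, 1.81 ± 0.19 on the log2 scale (adjusted p = 3.4e-07). AARS2 followed at 1.38 ± 0.17, then FARSA at 1.08 ± 0.13, QARS at 1.08 ± 0.15, FARS2 at 1.05 ± 0.22 and EARS2 at 0.96 ± 0.13. In MARS2, AARS2, QARS and FARS2 the KO change was called upward and the WT change downward, while in FARSA and EARS2 the change in KO alone, 0.19 and 0.17, did not pass. The downward differences were those of IARS2 (-0.65), EPRS (-0.63), LARS (-0.63), NARS2 (-0.56), RARS2 (-0.43) and FARSB (-0.42), all with a GC content under 46%. Calls were lost for AARS without KO heat shock replicate 1, for SARS without KO recovery or KO heat shock replicate 1, for FARSB without any 1 of the KO libraries, for NARS2 without replicate 2 of either KO group or replicate 1 of either WT group, and for RARS2 without any 1 library other than replicate 2 of the WT groups. With the offsets no member was called downward and 11 cytosolic and 7 mitochondrial genes were called upward, against 20.2% of all genes downward and 31.1% upward in that fit, and MARS2 (1.90), AARS2 (0.92), EARS2 (0.86) and YARS2 (0.83) had the largest values.

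**Figure D4:**
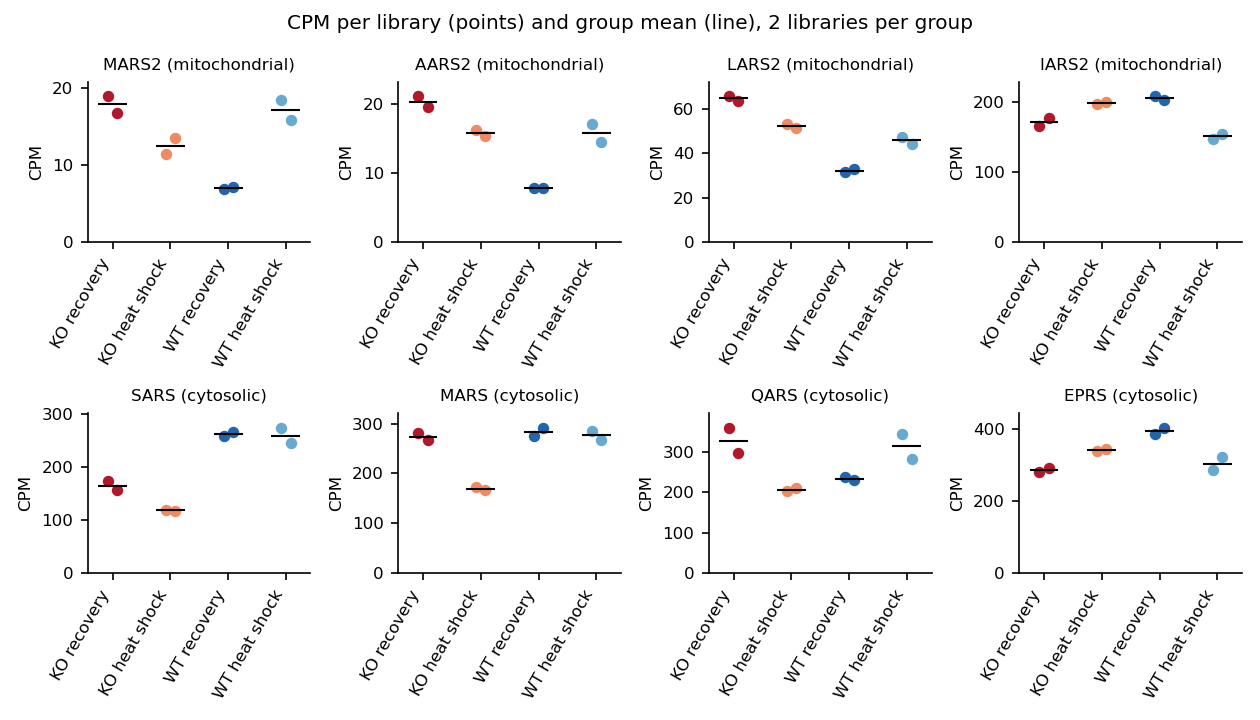
CPM in each library (points) and group mean (line) for 4 mitochondrial genes (upper row) and 4 cytosolic genes (lower row), with KO recovery, KO heat shock, WT recovery and WT heat shock from left to right. MARS2, AARS2 and LARS2 are lowest in WT recovery, IARS2 and EPRS are highest there, and SARS and MARS are lowest in KO heat shock.

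At heat shock, more cytosolic synthetase transcripts were lower than higher in KO cells. Of 20 cytosolic genes, 10 were lower in KO and 4 were higher, with a median log2 difference of -0.20. Of 14 mitochondrial genes, 2 were lower and 4 higher, with a median of 0.09. Over all genes tested, 28.2% were lower and 27.4% higher, with a median of -0.03, so the cytosolic share of lower calls was above the background, and the mitochondrial share of lower calls was below it.

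SARS (ENSG00000031698) had 119 and 118 CPM in KO heat shock, against 275 and 245 CPM in WT heat shock, a log2 difference of -1.14 ± 0.09 (adjusted p = 1.5e-07). CARS, the cysteinyl enzyme, had 92.6 and 95.2 CPM in KO heat shock and 151 and 164 CPM in WT heat shock (-0.75 ± 0.08). MARS had 172 and 167 CPM in KO heat shock and 286 and 268 CPM in WT heat shock (-0.71 ± 0.08). The libraries of each line lay close together in all 3 of these genes. YARS had 181 and 180 CPM in KO heat shock and 271 and 278 CPM in WT heat shock (-0.61 ± 0.08). QARS had 203 and 210 CPM in KO heat shock and 345 and 283 CPM in WT heat shock (-0.60 ± 0.11). AARS, GARS, WARS, VARS and DARS were lower by -0.53, -0.46, -0.46, -0.41 and -0.24 on the log2 scale. RARS (0.56), LARS (0.41), FARSB (0.31) and KARS (0.20) were higher in KO, and of these RARS alone still passed with the GC and length offsets. The call for KARS was lost without any 1 library other than WT heat shock replicate 1 and with a replicate block, that for VARS without KO heat shock replicate 1, and that for DARS without either KO heat shock library or WT heat shock replicate 2. The remaining cytosolic genes, EPRS, FARSA, HARS, IARS, NARS and TARS, lay between -0.15 and 0.20 and did not pass. With the GC and length offsets FARSA was called higher in KO (0.58), and IARS (-0.30) and TARS (-0.40) were called lower.

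Among the mitochondrial genes, HARS2, the histidyl enzyme, had 50.7 and 51.3 CPM in KO heat shock, against 29.8 and 31.4 CPM in WT heat shock, a log2 difference of 0.74 ± 0.08 (adjusted p = 4.8e-06). NARS2 (0.54), RARS2 (0.40) and IARS2 (0.39) were also higher in KO, and MARS2 (-0.46) and FARS2 (-0.39) were lower. The lower calls did not hold up to single libraries: without KO heat shock replicate 1 neither was called, and without KO heat shock replicate 2 or WT heat shock replicate 1 only MARS2 was. The higher call for RARS2 was lost without WT heat shock replicate 1. With the offsets, 11 cytosolic genes were lower, including 9 of the 10, and 2 were higher, and 6 mitochondrial genes were higher and 1 lower, against 25.2% of all genes lower and 26.9% higher in that fit. Across the members r with GC content was -0.50, against -0.37 across coding genes.

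At recovery the mitochondrial enzymes differed between the lines and the cytosolic enzymes were divided. Of 14 mitochondrial genes, 9 were higher in KO and 1, IARS2, was lower, with a median log2 difference of 0.65. Of 20 cytosolic genes, 6 were higher and 7 lower, with a median of -0.11. Over all genes tested, 31.8% were higher and 31.3% lower, with a median of -0.01. The mitochondrial share of higher calls was above the background, and the cytosolic shares were near it, though with upper-quartile scaling 13 cytosolic genes were called lower, against 39.2% of all genes.

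AARS2 had 21.2 and 19.6 CPM in KO recovery, against 7.77 and 7.88 CPM in WT recovery, a log2 difference of 1.38 ± 0.13 (adjusted p = 3.8e-07). MARS2 had 19 and 16.8 CPM in KO recovery and 6.86 and 7.11 CPM in WT recovery (1.35 ± 0.14). FARSA had 171 and 162 CPM in KO recovery and 71.2 and 66.1 CPM in WT recovery (1.28 ± 0.09). In these 3 genes WT recovery had the lowest level of the groups. KO recovery had the highest level for AARS2 and FARSA, while for MARS2 it overlapped WT heat shock. YARS2 had 43 and 45.4 CPM in KO recovery and 22.1 and 19.6 CPM in WT recovery (1.08 ± 0.11). LARS2, the mitochondrial leucyl enzyme, had 66 and 63.9 CPM in KO recovery and 31.6 and 32.9 CPM in WT recovery (1.01 ± 0.09). EARS2 had 77.4 and 69.4 CPM in KO recovery and 40.6 and 38.3 CPM in WT recovery (0.89 ± 0.09). HARS2, FARS2, CARS2 and VARS2 were higher by 0.78, 0.65, 0.64 and 0.50.

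Among the cytosolic genes, HARS (0.55), KARS (0.50), QARS (0.49), VARS (0.47) and RARS (0.25) were higher in KO recovery beside FARSA. SARS (-0.66), CARS (-0.59), GARS (-0.58), DARS (-0.54), EPRS (-0.46), YARS (-0.32) and LARS (-0.22) were lower. SARS, CARS, GARS, DARS and YARS were thus called lower in KO at both conditions. MARS, AARS and WARS were called lower at heat shock and did not pass at recovery (-0.05, -0.03 and -0.17). For WARS the recovery changes of the lines were not shown to differ (0.29, adjusted p = 0.0988), and with the offsets it was called lower at recovery too (-0.20). QARS and VARS were called lower at heat shock and higher at recovery. With the offsets, 10 mitochondrial genes were higher, including all 9, and none was lower, and 7 cytosolic genes were higher and 7 lower, of which 6 and 6 were called without offsets too. In that fit 40% of all genes were called higher and 27.7% lower. Across the members r with GC content was 0.47, against 0.13 across coding genes. Of the 23 members called, 19 passed in every leave-one-out fit, and the exceptions were LARS, IARS2, RARS and FARS2. LARS and RARS were lost without any 1 of the 4 recovery libraries, LARS also without either KO heat shock library, IARS2 without KO recovery or WT recovery replicate 1, and FARS2 without WT recovery replicate 2.

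**Figure D5:**
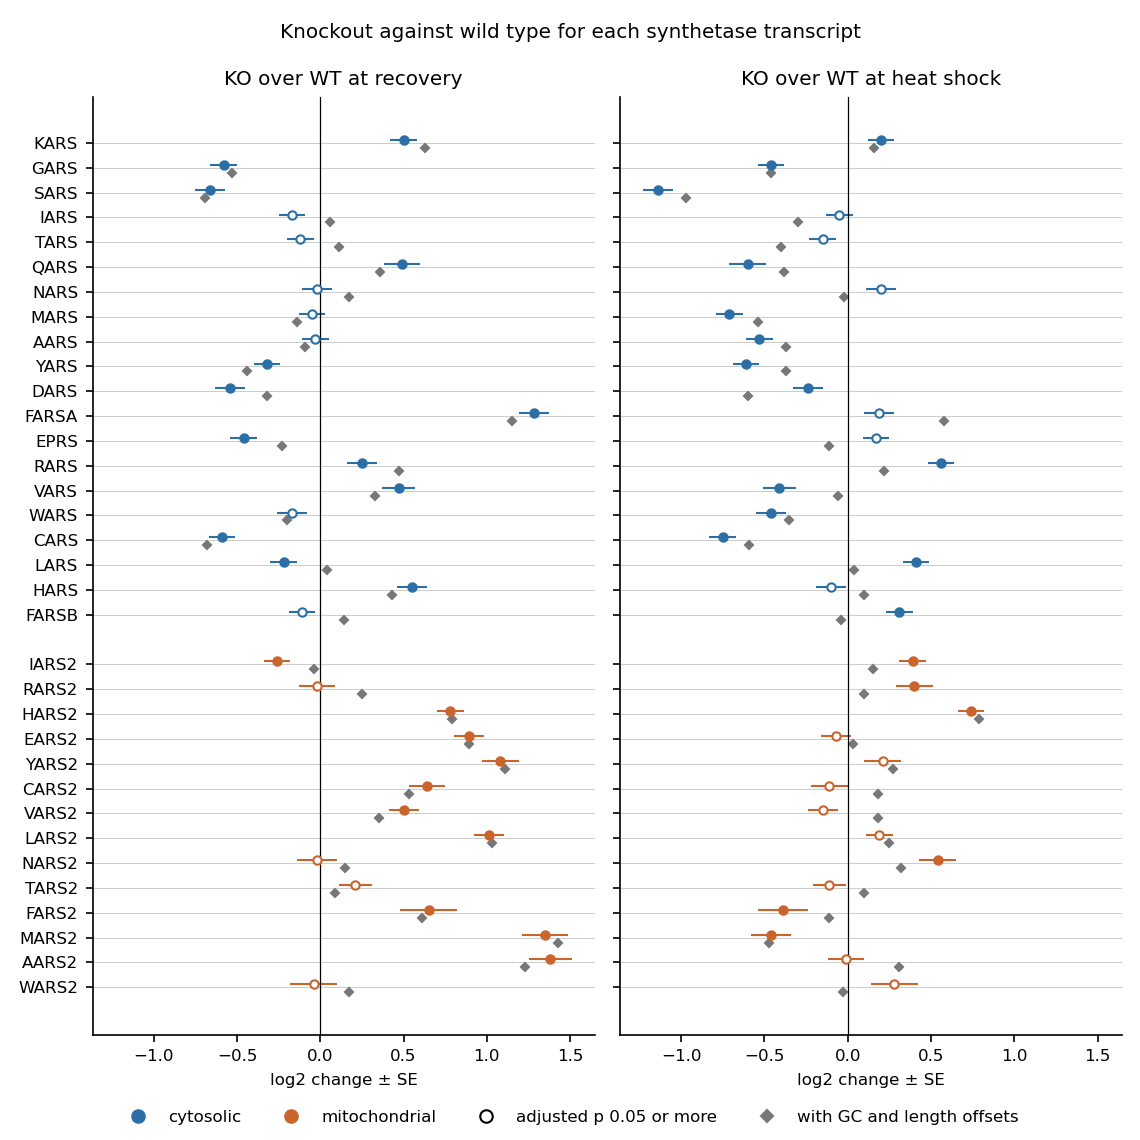
Log2 difference of KO over WT with its SE for each transcript, at recovery on the left and at heat shock on the right; filled points passed at an adjusted p under 0.05 and grey diamonds give the value with GC and length offsets. At recovery 9 mitochondrial points lie above 0 as called, up to 1.38 for AARS2; at heat shock 10 cytosolic points lie below 0 as called, down to -1.14 for SARS.

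The balance of the classes can be read within a library, where the scaling of library sizes has no effect. The summed counts of the 20 cytosolic genes were 7.85 and 7.6 times those of the 14 mitochondrial genes in KO recovery, 7.29 and 7.28 times in KO heat shock, 10.2 and 10.5 times in WT recovery and 9.75 and 9.56 times in WT heat shock. All 4 KO libraries lay below all 4 WT libraries, and recovery was above heat shock in both lines. Without IARS and IARS2, on average the most counted gene of each class, the ratio was 9.59 and 9.53 in KO recovery, 9.66 and 9.72 in KO heat shock, 15.7 and 16 in WT recovery and 12.3 and 12.2 in WT heat shock. With these genes left out the KO ratio was slightly lower at recovery than at heat shock, and the WT rise was larger. The summed level of the mitochondrial genes was 633 and 626 CPM in KO recovery, 602 and 605 CPM in KO heat shock, 499 and 490 CPM in WT recovery and 521 and 525 CPM in WT heat shock. Ratios were not tested.

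Pairs of enzymes for the same amino acid were also compared within each library. MARS2 counts were 2.49 and 2.44% of MARS counts in WT recovery, against 6.46 and 5.94% in WT heat shock. LARS2 counts were 32.2 and 30.9% of LARS counts in KO recovery and 21.4 and 20.6% in KO heat shock, and 13.5 and 13.5% in WT recovery against 26.5 and 22.7% in WT heat shock. The leucyl pair therefore moved toward the mitochondrial enzyme in KO recovery and away from it in WT recovery. IARS2 counts were 38.4 and 36.4% of IARS counts in WT recovery, against 29.3 and 31.4% in WT heat shock. In KO recovery the mitochondrial share was lower in both replicate pairs for 7 of 12 such pairs and higher for 4, and in WT recovery it was lower for 6 and higher for 4, whatever the size of the difference.

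HARS and HARS2 are neighbours on chromosome 5 that are read in opposite directions, and in GENCODE 29 they overlap at their starts by 436 bases. The RefSeq start sites of the genes lie apart, and the 84 bases between them (chr5:140691371-140691454, plus strand) are shown because this stretch lies before both RefSeq start sites. By the GENCODE 29 coordinates it lies inside HARS and partly inside HARS2.
HARS and HARS2: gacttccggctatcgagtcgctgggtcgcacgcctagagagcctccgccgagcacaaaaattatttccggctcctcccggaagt
Despite the shared stretch the genes differed in their line and recovery values. HARS counts were 2.52 and 2.25 times HARS2 counts in KO recovery, 2.01 and 2 times in KO heat shock, 2.89 and 2.69 times in WT recovery and 3.84 and 3.33 times in WT heat shock. HARS2 was higher in KO at both conditions (0.78 at recovery and 0.74 at heat shock), whereas HARS was higher at recovery (0.55) and did not pass at heat shock (-0.10, adjusted p = 0.358). Whether strand was used in the counting is not known from the sources used here. Reads from the overlap of the genes may therefore not have been told apart. KARS, WARS, YARS, EARS2, FARS2 and RARS2 also have an opposed neighbour within 1000 bases. Among these neighbours, LYRM4 beside FARS2 rose in KO recovery (0.51 ± 0.11) as FARS2 did, UBFD1 beside EARS2 did not pass in WT recovery (0.06 ± 0.09) where EARS2 fell, and S100PBP beside YARS passed in none of the comparisons, with or without offsets.

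Within the cytosolic class, the 8 enzymes of the multisynthetase complex were counted beside the other 12, and the difference between these sets was not tested. In KO recovery 2 of 8 complex members rose and 3 fell, against 6 of 12 and 1 of 12 outside the complex. Over all genes tested, 20.6% rose and 21.1% fell there. At heat shock 3 of 8 were lower in KO and 3 higher, against 7 of 12 and 1 of 12 outside. The shares of all genes were 28.2% lower and 27.4% higher. Of the 8, EPRS, IARS, LARS, RARS and DARS have a GC content under 46%. With the offsets 3 complex members rose in KO recovery and none fell, against 18.8% of all genes higher and 15.3% lower. The scaffold AIMP2 had 84.3 and 80.8 CPM in KO recovery, against 45.9 and 46.9 CPM in KO heat shock, a log2 change of 0.83 ± 0.10 (adjusted p = 1.8e-06), larger in value than that of any synthetase. In WT it had 62.4 and 61 CPM at recovery and 57.7 and 68.1 CPM at heat shock, and its change of -0.02 ± 0.10 did not pass, though it was called lower with the offsets (-0.21). EEF1E1 did not pass in KO recovery (0.08) and rose in WT recovery (0.37 ± 0.10). With the offsets it was called higher in KO recovery (0.33) and lower in WT recovery (-0.35), so the WT direction reversed. AIMP1 fell in KO recovery (-0.24) and rose in WT recovery (0.40), and neither call held with the offsets.

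Other genes of the pathway were described beside the synthetases. TARSL2, a threonyl synthetase gene that was not among the 35, fell in KO recovery (-0.44 ± 0.11), rose in WT recovery (0.32 ± 0.12) and was higher in KO at heat shock (0.67 ± 0.13), and its WT recovery call was lost with the offsets. PARS2, the mitochondrial prolyl enzyme, likewise not among the 35, passed in none of the comparisons without offsets, and with them it was lower in KO at recovery (-0.29). Mitochondria make glutaminyl-tRNA with an amidotransferase in place of a glutaminyl synthetase. Of its subunits and the formylase MTFMT, 4 were tested: at heat shock QRSL1 (0.71), GATC (0.46) and MTFMT (0.77) were higher in KO, and PET112 (0.04), the symbol used for the B subunit, did not pass, while at recovery PET112 (0.77) and QRSL1 (0.26) were higher. Of 5 partner and editing factors tested, 1 rose and 2 fell in KO recovery, against 20.6% of all genes higher and 21.1% lower. In WT recovery 2 rose and 2 fell, against 24.8% higher and 26% lower. XPOT, which exports transfer RNA from the nucleus, fell in KO recovery (-0.39 ± 0.10) and rose in WT recovery (0.67 ± 0.10), and the KO call was lost with the offsets. SEPSECS, which completes selenocysteinyl-tRNA, fell in KO recovery (-0.78 ± 0.16), rose in WT recovery (0.79 ± 0.15) and was lower in KO than in WT at recovery (-1.60 ± 0.17). Its KO recovery call was lost with the offsets (-0.34). AARSD1 and DTD1, which are editing factors that remove wrongly loaded amino acids, fell in WT recovery (-0.46 ± 0.11 and -0.33 ± 0.10), and their recovery changes were more upward in KO than in WT (0.77 ± 0.15 and 0.45 ± 0.14).

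The amino acid response was counted as a list of 24 tested genes that holds no synthetase. At heat shock 19 of 24 were lower in KO and none was higher, with a median log2 difference of -0.81. In the same comparison 10 of the 20 cytosolic synthetases were lower, and over all genes tested 28.2% were lower and 27.4% higher. ATF4 had 257 and 234 CPM in KO heat shock, against 441 and 488 CPM in WT heat shock (-0.92 ± 0.09). ASNS, asparagine synthetase, had 92.9 and 91.3 CPM in KO heat shock and 293 and 358 CPM in WT heat shock (-1.82 ± 0.10). In KO recovery 15 of 24 rose and 1 fell, against 20.6 and 21.1% of all genes. In WT recovery 7 rose and 9 fell, against 24.8 and 26%. At recovery 5 were higher in KO and 14 lower, against 31.8 and 31.3%. With the offsets, 17 were lower and 1 higher at heat shock, against 25.2% of all genes lower and 26.9% higher in that fit. The 7 genes whose promoters hold the composite element did not all move. At heat shock 3 of them, AARS, CARS and MARS, were lower in KO and none was higher, against 10 of the 20 cytosolic genes lower. With the offsets 5 were lower, with IARS (-0.30) and TARS (-0.40) added, and YARS2 (0.27) was higher. In that fit 11 of the 20 cytosolic genes were lower. SARS, GARS, WARS and QARS, lower too, had no match in the window, and promoters of YARS, VARS and DARS, also lower, were not matched in the table. In KO recovery 3 of the 7 genes with the element rose and none fell, against 8 of the 20 cytosolic genes and 20.6% of all genes rising. With the offsets 6 of the 7 rose there, against 11 of the 20 and 18.8% of all genes. In WT recovery none of the 7 rose and 1 fell. MYC had 600 and 548 CPM in KO recovery, 328 and 350 CPM in KO heat shock, 266 and 251 CPM in WT recovery and 801 and 750 CPM in WT heat shock. It rose in KO recovery (0.76 ± 0.10) and fell in WT recovery (-1.59 ± 0.10). Of the 34 synthetases, 9 were called in these directions and 2 in the opposite ones, against 11.5 and 10.5% of all genes. Between the lines MYC was lower in KO at heat shock (-1.19 ± 0.09), where AARS2 did not pass (-0.01), and higher in KO at recovery (1.15 ± 0.09). Whether MYC or ATF4 has a part in the synthetase changes was not tested.

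The tables the authors deposited give their own log2 fold changes per replicate pair, scaled by the column totals. In the authors' deposited table MARS2 changed by 0.56 and 0.23 in the KO pairs and by -1.29 and -1.02 in the WT pairs. QARS changed by 0.66 and 0.41 in the KO pairs of the authors' deposited table and by -0.40 and -0.16 in the WT pairs. In the KO pairs of the authors' deposited table, 10 and 9 of 20 cytosolic genes were higher and 9 and 8 lower at a q-value under 0.05, and 5 and 6 of 14 mitochondrial genes were higher and 3 lower in each. Of all genes with a q-value in these pairs of the authors' deposited table, 16.6 and 16.7% were higher and 31.9 and 27.5% lower. In the WT pairs of the authors' deposited table, 6 of 14 mitochondrial genes were lower in each at a q-value under 0.05, and 5 and 3 were higher. Of 20 cytosolic genes in these pairs of the authors' deposited table, 13 and 14 were higher and 4 lower in each. By the same q-value 32 and 31.2% of all genes were higher in the WT pairs of the authors' deposited table, and 20.7 and 17.2% lower. The split of all genes there thus leaned toward higher values, and the cytosolic shares of higher calls were above that background. In the KO pairs of the authors' deposited table, the cytosolic shares of higher and of lower calls were both above the background of those pairs. Each of these q-values comes from a single replicate pair, so it holds no spread between replicates. Genes with many counts, such as the cytosolic ones, pass more readily by such a q-value.

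The gene ID that GENCODE 29 annotates as SARS2 on chromosome 19 (ENSG00000104835) stands under the symbol FBXO17 in the tables, so its counts may belong to either gene. It was looked up after the values were seen and is counted in none of the classes. It had 39.7 and 36.8 CPM in KO recovery, 31.8 and 34.1 CPM in KO heat shock, 31.4 and 33.6 CPM in WT recovery and 44.9 and 38.7 CPM in WT heat shock. Its fall in WT recovery (-0.36 ± 0.11, adjusted p = 0.00958) and its lower level in KO at heat shock (-0.34 ± 0.10, adjusted p = 0.00816) were not called with the GC and length offsets (-0.11 and 0.03).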

How the data were processed

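The authors deposited 4 tables, 1 per cell line and replicate, and per the file headers each gives read counts of 2 libraries per gene, a log2 fold change and a q-value computed by the authors. The deposited counts are whole numbers, not normalized, and a missing value was read as 0. Which count column is recovery rests on the name of each comparison and on the sign of the authors' fold change. CASAVA, TopHat and hg19 are named, with no versions, per the submitters' processing notes. For the counting program and whether it used strand, nothing is stated in the sources used here. Per the labels' protocols the libraries were strand-specific (dUTP), with single reads of 50 bases.

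Counts of all 8 libraries were fitted with edgeR 4.0.16 in R 4.3.3 (filterByExpr, TMM scaling, quasi-likelihood F test, Benjamini-Hochberg adjustment over 17471 genes, threshold 0.05). Recovery was compared within replicate pairs of a line, as the series design text describes, and KO with WT as group means. The deviations of paired libraries from their group means correlated at r = -0.0156 in WT and -0.0138 in KO, so the data do not show the pairing. Values after ± are standard errors (log2 change over the root of F), with 2 libraries per group. Chi-square tests of replicate counts gave 2.43 to 19 per degree of freedom, so replicates differed beyond sampling noise. Depth limits the precision of rare transcripts, and counts carry no molecular identifiers. Alternatives were RLE and upper-quartile scaling, DESeq2 1.42.0, no filter, GC and length offsets (splines with 5 degrees of freedom, GENCODE 29 transcripts), the pairing, the 4 libraries compared alone, and each library left out.

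The members, gene lists and motifs were chosen with earlier results of these data known. Values per library are given for the 6 members with the largest changes that passed in each comparison and for members that went against their class, and genes of the other lists may be named. Results for 1 listed gene outside the members are not reported here.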

Additional observations from a re-analysis of the deposited data

Results flagged for a closer look

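The recovery change differed between KO and WT cells, by the interaction test at an adjusted p under 0.05, for 21 of the 34 members, against 56.3% of all genes tested. Of the members 15 were upward and 6 downward, against 28.5 and 27.8% of all genes. Values are the KO recovery change minus the WT recovery change on the log2 scale. Among the mitochondrial enzymes the difference was 1.81 for MARS2, 1.38 for AARS2, 1.05 for FARS2, 0.96 for EARS2, 0.87 for YARS2, 0.82 for LARS2, 0.76 for CARS2 and 0.65 for VARS2. It was -0.65 for IARS2, -0.56 for NARS2 and -0.43 for RARS2. Among the cytosolic enzymes it was 1.08 for FARSA, 1.08 for QARS, 0.89 for VARS, 0.66 for MARS, 0.65 for HARS, 0.50 for AARS and 0.47 for SARS. It was -0.63 for EPRS, -0.63 for LARS and -0.42 for FARSB. GC content moves with these values (r = 0.76 across the members, 0.46 across coding genes), and 14 of the 15 upward calls and none of the 6 downward calls remained with GC and length offsets.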

How the results depend on the processing

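With GC and length offsets the counts in WT recovery became 4 cytosolic genes higher and 1 mitochondrial gene higher. In KO recovery 0 cytosolic genes were lower. In the difference of responses 11 cytosolic genes were upward, and 0 cytosolic and 0 mitochondrial genes were downward. KO against WT at heat shock gave 2 cytosolic genes higher and 1 mitochondrial gene lower, and at recovery 0 mitochondrial genes lower. Of all genes in that fit, 20% were higher in WT recovery and 15.3% lower in KO recovery. In the difference 31.1% were upward and 20.2% downward. Between lines 26.9% were higher and 25.2% lower at heat shock, and 27.7% were lower at recovery. The share of called genes that were higher became 38.5% in WT recovery, 60.6% in the difference and 59.1% between lines at recovery, against 48.8%, 50.6% and 50.4%, and the median of all genes in the last became 0.127. Signs turned for these log2 values, of which at least 1 of the 2 fits had called each: FARSB to -0.238 and RARS to -0.287 in WT recovery, EPRS to 0.0365 and LARS to 0.0817 in KO recovery, DARS to 0.274, FARSB to 0.184, IARS to 0.368 and RARS2 to 0.147 in the difference, FARSB to -0.0433, AARS2 to 0.313 and VARS2 to 0.183 between lines at heat shock, and LARS to 0.0409, NARS to 0.174 and RARS2 to 0.254 at recovery. The cause was not tested.

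Upper-quartile scaling put the median of all genes at 0.103 in WT recovery, -0.136 in the difference and -0.177 between lines at recovery, against 0.009, -0.032 and -0.010 with TMM scaling. The share of called genes that were higher became 59% in WT recovery and 38.1% between lines at recovery, against 48.8% and 50.4%. It gave 7 cytosolic genes higher in WT recovery, 6 downward in the difference and 13 lower in KO at recovery. Of all 17471 genes tested, 5303, 5530 and 6852 were called in these directions. RLE scaling gave 5 cytosolic genes downward in the difference and 1 mitochondrial gene lower in KO at heat shock, against 5015 and 4787 of 17471 genes. DESeq2 gave 1 mitochondrial gene higher in WT recovery, 1 higher in KO recovery, 1 downward in the difference and 1 lower in KO at heat shock. In that order it called 2906, 2385, 3568 and 4079 of 17471 genes. Without the filter, 1 mitochondrial gene was higher in WT recovery, 2 cytosolic genes were lower in KO recovery and 0 mitochondrial genes were lower in KO at recovery. Of the 32200 genes in that fit, 3845, 3349 and 5143 were called in these directions. From the 4 libraries compared alone, 1 mitochondrial gene was higher in WT recovery, 3 were lower in KO recovery and 1 was lower in KO at heat shock. Over all genes, 4054 of 16387, 4050 of 16319 and 4201 of 16269 were called in these directions. Without the replicate block, 1 mitochondrial gene was lower in KO recovery, against 0 with the pairing, and with a replicate block between lines the call for KARS at heat shock was lost.

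Leaving out 1 library at a time moved the mitochondrial genes higher in WT recovery between 1 and 3. In KO recovery cytosolic genes higher ran from 2 to 10, cytosolic lower from 0 to 4, mitochondrial higher from 0 to 8 and mitochondrial lower from 0 to 3. In the difference, cytosolic genes downward ran from 2 to 5 and mitochondrial downward from 1 to 3. Mitochondrial genes lower in KO ran from 0 to 3 at heat shock and from 0 to 1 at recovery. The cytosolic to mitochondrial ratio, from 7.72 (KO recovery), 7.29 (KO heat shock), 10.3 (WT recovery) and 9.66 (WT heat shock), became 9.56, 9.69, 15.8 and 12.2 without the most counted genes. Per kilobase it became 7.03 in KO heat shock and 10 in WT recovery.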
